A study of Mus musculus with 6 samples.

Results

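The genes of blood vessels were examined in RNA of mouse atria, the upper chambers of the heart, as a set of 51 named genes for endothelium, pericytes and angiogenesis. They were found by symbol in the deposited expression table, where each of the 51 had 1 row among 43432 gene identifiers. The rule that lists them uses no measured value, but the genes were chosen with earlier results of these data known. Wild-type mice of the C57/Bl6J background received a high fat diet (HFD, 3 mice) or control chow (3 mice) from 6 weeks of age for 10 weeks, and RNA of right and left atrial tissue was sequenced, with no label that tells the sides apart. No transgene, deletion or drug was part of either group. The labels of the samples contradict one another: in all 6 of them the treatment field names the diet opposite to the one in the title and in the table column. Groups here follow the titles, and every direction below would turn if the treatment field were the correct one. Values are normalized counts, read counts divided by one factor per sample. In whole tissue, fewer cells of a type and less RNA per cell cannot be told apart.

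Endothelial cells line every vessel and the inner face of the heart, and pericytes wrap the capillaries from outside. Vascular endothelial growth factors (VEGFs) act on receptors of the endothelium to drive vessel growth and permeability. Notch signalling between neighbouring endothelial cells restrains sprouting, and angiopoietin-1 steadies vessels through the receptor Tie2. Endothelium also sets vessel tone, through nitric oxide and endothelin, and displays adhesion molecules to leukocytes when it is inflamed.

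The samples held 15874251 to 28971508 reads on genes. Control mouse 2 was the deepest, and 30.7% of its reads lay on mitochondrially encoded genes, against 19.5% to 24.4% in the other mice. A count of 3 reads, taken as the smallest signal, equalled 2.05 to 3.41 normalized counts. The diets were tested against each other in limma, on the scale log2(normalized count + 1), over 15275 genes with a mean of at least 10, and adjusted p is the Benjamini-Hochberg value over all of them. Atrial tissue was present in every sample by its defining genes, with 27168 to 60190 normalized counts of the atrial light chain gene Myl7. The mean log2 level of 6 atrial cardiomyocyte markers stood at -0.54, -0.61 and 0.05 in HFD mice 1, 2 and 3 relative to the control mean, and between -0.05 and 0.05 in the control mice. HFD mouse 3 was near the controls in this mean but not gene by gene, since it lay below every control for Sln and Tnnt2 and above every control for Actn2, Nppa and Myl4. The level of 5 ventricular markers was 0.57 in control mouse 2 and at most -0.02 in the other 5 mice.

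One of the 51 genes passed the test. Aplnr, which encodes the receptor of the peptide apelin on endothelial cells, fell in the HFD mice, and no vascular gene of the set rose past an adjusted p of 0.05. Over all genes tested, 114 (0.746%) had an adjusted p under 0.05, 74 of them higher with the HFD (0.484%) and 40 lower (0.262%). All 51 genes passed the filter on low values. The log2 fold change, HFD minus control, was positive for 33 and negative for 18, with a median of 0.14 beside 0.005 over all genes tested. It was positive for 21 and negative for 30 once the mean level of the endothelial junction and surface genes, themselves in the set, was subtracted in each sample. That step lowers the log2 fold change of every gene by the same amount, and the median was then -0.04 beside -0.18 over all genes tested. Without that step, an unadjusted p under 0.05 was found for 15 genes (29.4%), 13 higher (25.5%) and 2 lower. All genes gave 12.2% in either direction, 6.66% higher and 5.55% lower. The groups did not overlap for 14 genes (27.5%), 12 higher (23.5%) and 2 lower. Among all genes they did not overlap for 18.0%, with 8.86% of all genes higher and 9.17% lower. The genes of the set were measured in the same mice and are not independent, so these counts describe the set and carry no test.

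**Figure D1:**
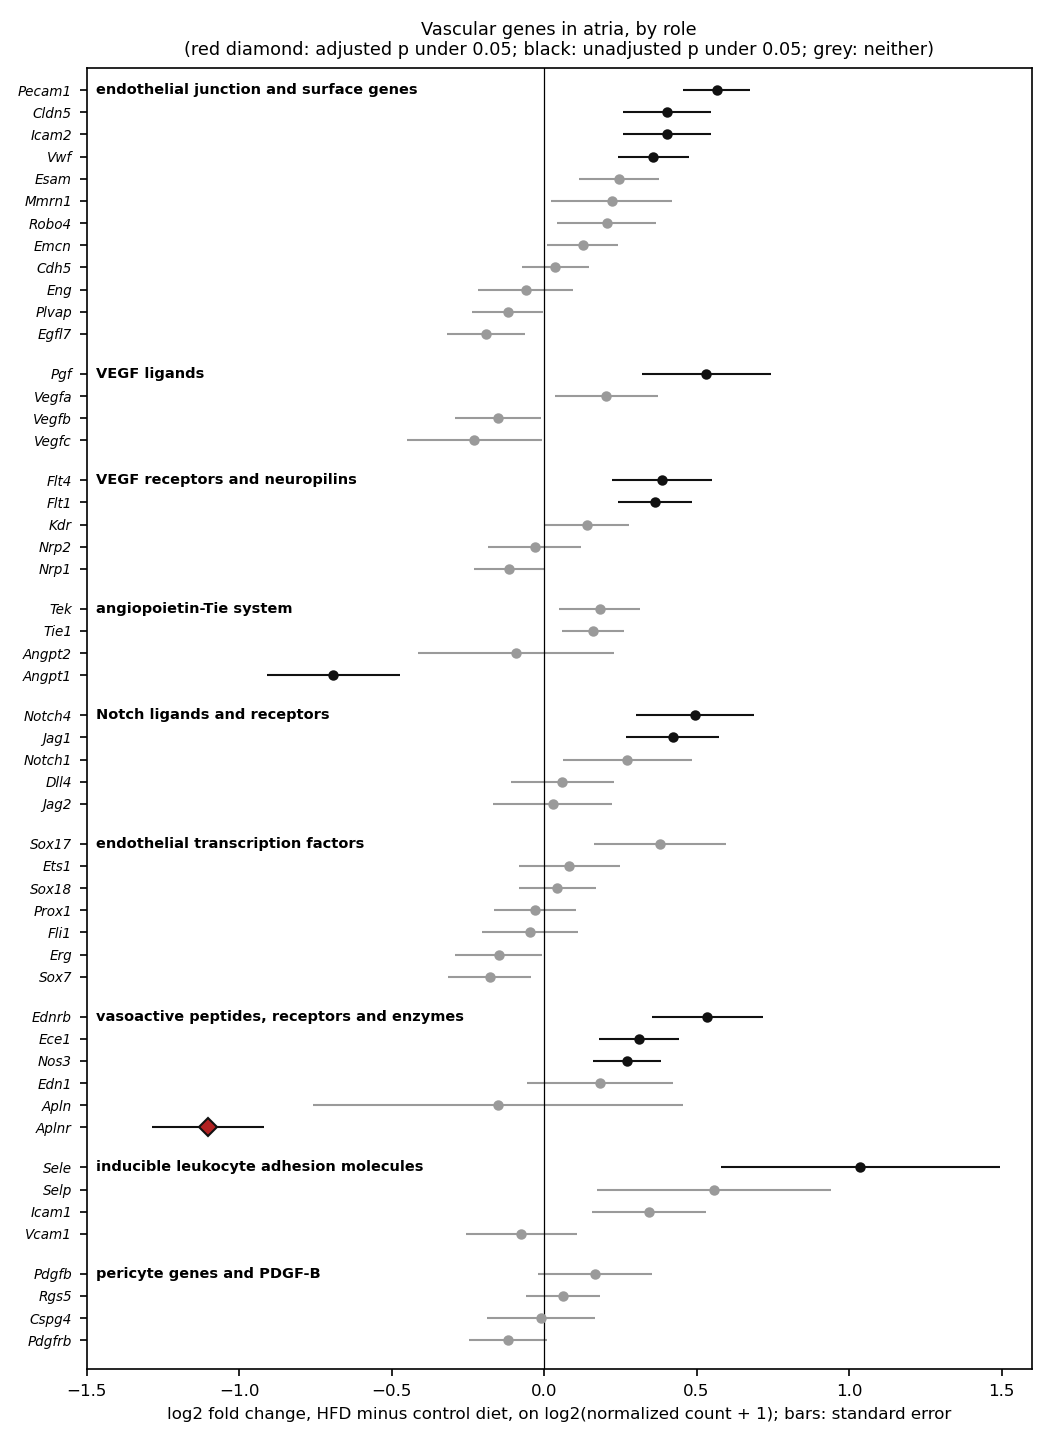
Log2 fold change (x axis, HFD minus control diet, 3 mice each) of the 51 vascular genes, grouped by role, with bars for the standard error from limma. Aplnr at -1.10 is the single gene with an adjusted p under 0.05 (red diamond), and 12 of the 14 black points, with an unadjusted p under 0.05, lie between 0.27 and 0.57. Relative to the junction and surface genes 21 genes are positive, against 33 as plotted, on a scale where the median of all genes tested is -0.18.

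The mice of one diet differed among themselves. HFD mouse 3 had the highest value of the 6 mice for 18 of the 51 genes and HFD mouse 2 for 16, whereas HFD mouse 1 had the highest for 4 and the lowest for 16. Control mouse 2 had the lowest value for 13 genes. Of the 15 genes with an unadjusted p under 0.05, 3 (Aplnr, Pecam1 and Angpt1) kept it in each of the 6 fits that left out 1 mouse, and 35 of the 51 genes kept the sign of their fold change. The number of genes of the set with an unadjusted p under 0.05 went from 15 to 7 without HFD mouse 2, to 7 without control mouse 2 and to 9 without control mouse 3. Without HFD mouse 3 the median log2 fold change of the set was 0.03. With both HFD mouse 3 and control mouse 2 left out, a choice made after seeing their cardiomyocyte markers, 9 genes had an unadjusted p under 0.05, 5 higher and 4 lower. All these fits have fewer mice than the main fit, and their counts stand without the share over all genes. They do not tell whether the set depends on a mouse more than other genes do.

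Per kilobase of exon, the most abundant genes of the set were Vegfb (2497 normalized counts per kb, mean of 6 mice), Eng (2003), Rgs5 (1255), Plvap (938) and Vegfa (830). Pecam1 (795) and Cdh5 (775) followed, and the selectins Selp (8.68) and Sele (8.41) were lowest. On this per-length scale Aplnr stood at 61.5 normalized counts per kb in HFD and 130.5 in control mice.

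Promoters are shown for Flt1, Ednrb and Cldn5, the genes with the smallest p among the members that have an entry in the RefSeq promoter table of GRCm38.p6, since genes higher in the same samples are often searched for shared motifs. Entries existed for 33 of the 51 genes, 43 promoters in all, and not for Aplnr, Pecam1 or Angpt1. Each sequence runs 5′ to 3′ on the strand of the gene, from 250 bases before its start to 50 bases after, and capitals mark GGAA or TTCC, the core letters bound by ETS factors, and TGACGTCA, the cAMP response element.
Flt1 (chr5:147725962-147726261, - strand): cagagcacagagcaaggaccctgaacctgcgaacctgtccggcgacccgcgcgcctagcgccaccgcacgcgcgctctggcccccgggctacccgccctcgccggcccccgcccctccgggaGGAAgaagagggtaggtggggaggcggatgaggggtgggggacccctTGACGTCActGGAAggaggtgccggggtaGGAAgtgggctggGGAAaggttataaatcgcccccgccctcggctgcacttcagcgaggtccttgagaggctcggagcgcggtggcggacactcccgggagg
Ednrb (chr14:103843652-103843951, - strand): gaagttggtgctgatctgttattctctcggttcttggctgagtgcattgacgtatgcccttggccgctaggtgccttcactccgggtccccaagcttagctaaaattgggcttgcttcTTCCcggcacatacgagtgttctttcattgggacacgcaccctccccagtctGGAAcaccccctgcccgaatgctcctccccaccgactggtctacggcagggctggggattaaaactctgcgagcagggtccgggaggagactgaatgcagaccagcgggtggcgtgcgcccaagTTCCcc
Cldn5 (chr16:18776597-18776896, + strand): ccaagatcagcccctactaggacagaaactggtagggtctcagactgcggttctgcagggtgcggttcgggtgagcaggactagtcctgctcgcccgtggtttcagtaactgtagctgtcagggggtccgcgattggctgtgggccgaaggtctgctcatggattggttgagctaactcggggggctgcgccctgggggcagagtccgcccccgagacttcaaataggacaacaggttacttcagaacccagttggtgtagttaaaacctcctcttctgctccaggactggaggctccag
The window of Flt1 held 4 ETS cores and 1 cAMP response element, that of Ednrb 3 ETS cores, and that of Cldn5 none of either. On both strands, GGAA occurred in 95.98% of all 32851 promoters of this length and in 90.7% of the 43 promoters of the set. ACAAT, the core of SOX sites, occurred in 31.02% and 25.58%, ACGTG, the core of hypoxia response elements, in 19.62% and 6.977%, and TGACGTCA in 1.79% and 2.326%. These are matches of letters in a short window and not sites of binding.

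The vasoactive genes held the gene that passed the test. Aplnr (ENSMUSG00000044338, chr2:85136225-85139923, plus strand, GRCm38) had 182, 214 and 286 normalized counts in HFD mice 1, 2 and 3 and 430, 545 and 473 in control mice 1, 2 and 3. Every HFD mouse lay below every control mouse. The level was 227 ± 53.4 (SD, n = 3) with the HFD and 483 ± 58.0 (SD, n = 3) with the control diet, 2.15-fold lower with the HFD, and the log2 fold change was -1.10 (SE 0.18, limma adjusted p = 0.0303). Without 1 mouse at a time the log2 fold change stayed between -1.28 and -0.95, while the adjusted p ranged from 0.00445 (without HFD mouse 3) to 0.144 (without control mouse 2) and was under 0.05 in 1 of the 6 fits. Without a trend in the variance of the fit it was 0.177. Apln encodes the ligand of this receptor. It had 35.2, 40.8 and 256 normalized counts with the HFD and 76.1, 69.8 and 96.2 with the control diet, so HFD mouse 3 alone was high and the other HFD mice lay below all controls (log2 fold change -0.15, SE 0.61, limma adjusted p = 0.955).

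**Figure D2:**
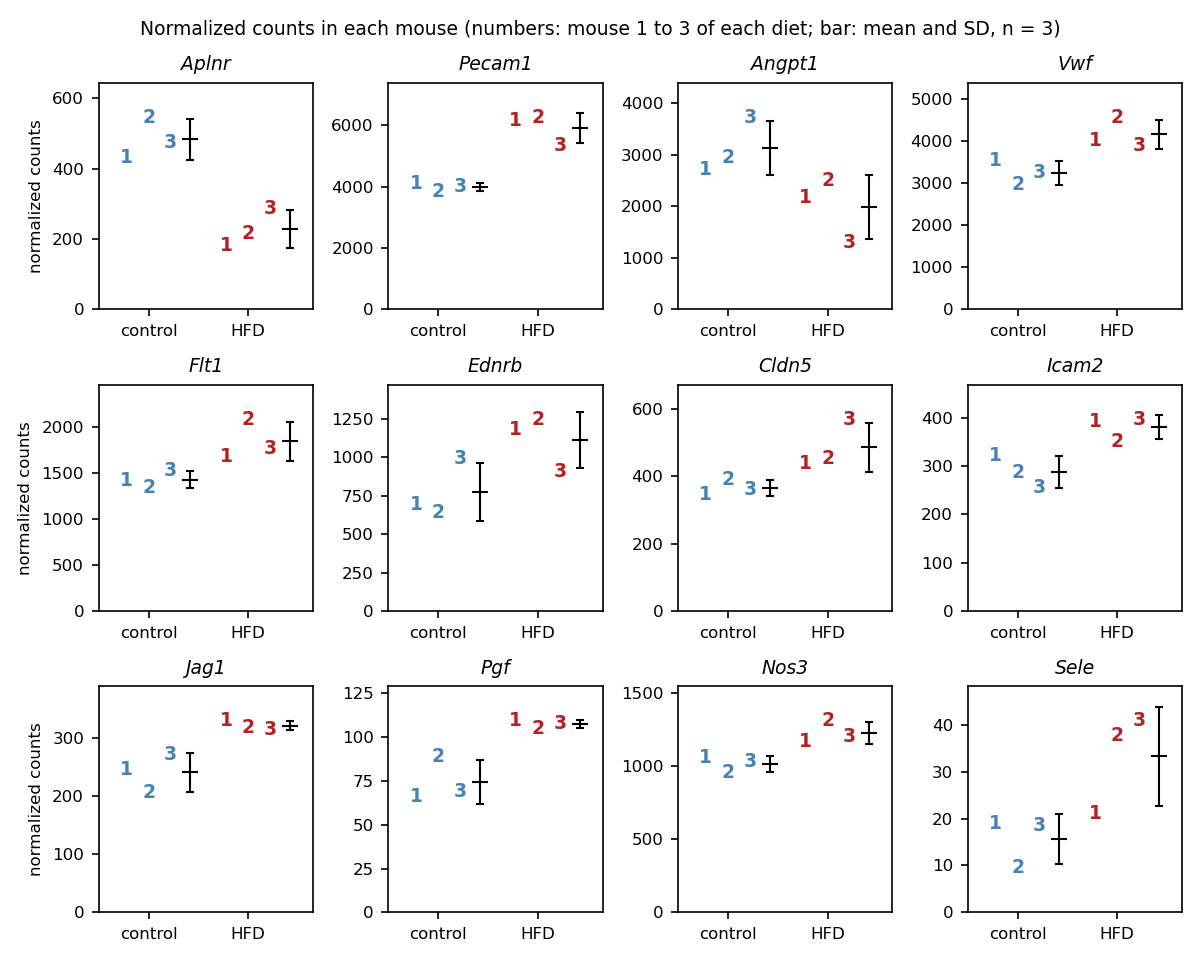
Normalized counts (y axis) in each mouse (numbered) of 12 of the vascular genes with an unadjusted p under 0.05, for the control diet and the HFD, with the mean and SD of 3 mice. The HFD mice lie below the controls for Aplnr (182 to 286 against 430 to 545) and Angpt1, and above them for Pecam1 (5340 to 6259 against 3842 to 4106).

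Endothelial nitric oxide synthase, Nos3, had 1166, 1312 and 1205 normalized counts with the HFD and 1058, 957 and 1035 with the control diet. The groups did not overlap, by a small margin (log2 fold change 0.27, SE 0.11, limma adjusted p = 0.356). Ece1, the enzyme that cleaves big endothelin to its active form, stood at 3648, 4490 and 3672 against 3378, 2749 and 3387, again without overlap (0.31, SE 0.13, adjusted p = 0.371). Ednrb, the endothelin B receptor, had 1182, 1249 and 908 against 691, 643 and 989. Here control mouse 3 exceeded HFD mouse 3, so the groups overlapped (0.54, SE 0.18, adjusted p = 0.249). Edn1, which encodes endothelin-1 itself, had a log2 fold change of 0.18 (SE 0.24) from 82.8 to 141 normalized counts.

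Among 12 junction and surface genes of the endothelium, 9 had a positive log2 fold change, 4 an unadjusted p under 0.05, all higher (33.3%, beside 6.66% of all genes), and none an adjusted p under 0.05. Pecam1 (ENSMUSG00000020717, chr11:106654217-106750628, minus strand, GRCm38), which encodes the junction protein CD31, had 6153, 6259 and 5340 normalized counts with the HFD and 4106, 3842 and 4019 with the control diet. Each HFD mouse exceeded each control mouse by more than the spread within either diet. Its mean was 5917 ± 503 (SD, n = 3) against 3989 ± 134 (SD, n = 3), 1.48-fold, and the log2 fold change of 0.57 (SE 0.11) had a limma adjusted p of 0.0504, just outside the threshold. The fits without 1 mouse gave 0.52 to 0.64, with adjusted p from 0.0134 (without HFD mouse 3) to 0.233.

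Vwf, the clotting factor stored in endothelial granules, had 4030, 4566 and 3910 against 3540, 2966 and 3248 normalized counts, without overlap (log2 fold change 0.36, SE 0.12, limma adjusted p = 0.224). Cldn5, a tight junction protein, had 437, 452 and 570 against 345, 391 and 361, with HFD mouse 3 highest (0.40, SE 0.14, adjusted p = 0.289). Icam2, a constitutive adhesion molecule of endothelium, had 392, 352 and 398 against 322, 287 and 256 (0.40, SE 0.14, adjusted p = 0.289). The HFD mice were above the controls in all 3 genes, with smaller log2 fold changes than Pecam1. Esam, another junction molecule, did not overlap either, at 1079, 1138 and 1192 against 1014, 1067 and 811 (0.25, SE 0.13, adjusted p = 0.499).

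The other junction and surface genes overlapped between the diets, with log2 fold changes from -0.19 to 0.22. Cdh5, the VE-cadherin gene and a further general marker of endothelium, had 3133, 3432 and 3327 normalized counts with the HFD and 2970, 3510 and 3179 with the control diet, fully overlapping (log2 fold change 0.04, SE 0.11, limma adjusted p = 0.934). Eng (-0.06), Plvap (-0.12) and Egfl7 (-0.19) had negative log2 fold changes, and Emcn (0.13), Robo4 (0.21) and Mmrn1 (0.22) positive ones, all with adjusted p of at least 0.608. The log2 ratio of Pecam1 to Cdh5 within a sample was 0.97, 0.87 and 0.68 in HFD mice and 0.47, 0.13 and 0.34 in control mice. The difference of 0.53 had a two-sided exact permutation p of 0.1, the smallest that 3 against 3 mice can give (adjusted p = 0.267 over 4 ratios chosen after seeing the data). The log2 ratios of Flt1 to Kdr (difference 0.22, exact p = 0.2), Jag1 to Dll4 (0.36, exact p = 0.2) and Angpt2 to Angpt1 (0.60, exact p = 0.7) were the other 3.

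In the angiopoietin-Tie system the groups stood apart for 2 of 4 genes (50%, beside 18.0% of all genes), Angpt1 and Tie1, in opposite directions. Relative to the junction and surface genes Tie1 was at -0.02. Neither Angpt1 nor Tie1 passed the test. Angpt1 (ENSMUSG00000022309, chr15:42424727-42676977, minus strand, GRCm38), the vessel-stabilizing ligand, had 2162, 2507 and 1306 normalized counts with the HFD and 2711, 2950 and 3722 with the control diet. The groups did not overlap, with HFD mouse 3 the lowest and control mouse 3 the highest. The mean was 1992 ± 618 (SD, n = 3) against 3128 ± 528 (SD, n = 3), and the log2 fold change of -0.69 (SE 0.22) had a limma adjusted p of 0.212. It ranged from -0.88 to -0.41 in the fits without 1 mouse, nearest to zero without HFD mouse 3. Tie1, the orphan receptor of the system, stood at 2025, 2054 and 2044 against 1830, 1903 and 1748, a narrow separation (0.16, SE 0.10, adjusted p = 0.576). Tek, the Tie2 receptor of angiopoietins, had a log2 fold change of 0.18 (SE 0.13), and Angpt2, the ligand that loosens vessels, one of -0.09 (SE 0.32) with 80.6 to 207 normalized counts in the HFD mice.

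Of 4 VEGF ligands, 1 stood apart between the diets, Pgf, which was higher (25%, beside 8.86% of all genes). This placental growth factor gene, whose product binds the receptor VEGFR1, had 110, 105 and 108 normalized counts with the HFD and 66.1, 89.0 and 68.9 with the control diet, above every control (log2 fold change 0.53, SE 0.21, limma adjusted p = 0.347). Vegfa, the principal angiogenic ligand, had 3094, 3391 and 5053 against 3336, 3050 and 3406. HFD mouse 3 alone was high, and without it the log2 fold change of 0.20 (SE 0.17, adjusted p = 0.685) became -0.01. Vegfb, linked to endothelial uptake of fatty acids, had -0.15 (SE 0.14), and Vegfc, the lymphatic growth factor, -0.23 (SE 0.22).

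Among the receptors, Flt1 (VEGFR1, which binds VEGF and acts largely as a decoy) had 1684, 2089 and 1765 normalized counts with the HFD and 1423, 1339 and 1527 with the control diet. The groups did not overlap (log2 fold change 0.36, SE 0.12, limma adjusted p = 0.233). Flt4, the VEGFR3 receptor of lymphatic endothelium, had 348, 495 and 497 against 320, 336 and 355, with HFD mouse 1 among the controls (0.39, SE 0.16, adjusted p = 0.377). Kdr, the main signalling receptor VEGFR2, had 1750, 2361 and 2021 against 1612, 1909 and 2028 and overlapped (0.14, SE 0.14, adjusted p = 0.745). The co-receptors Nrp1 (-0.12, SE 0.12) and Nrp2 (-0.03, SE 0.15) lay near zero.

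All 5 Notch genes of the set had positive log2 fold changes on the deposited scale, Dll4 and Jag2 turned negative relative to the junction and surface genes, and none passed the test. Jag1, a Notch ligand, had 330, 317 and 315 normalized counts with the HFD and 245, 205 and 271 with the control diet, without overlap (0.42, SE 0.15, limma adjusted p = 0.290). Notch4, the endothelial receptor, had 444, 778 and 683 against 431, 477 and 409, and HFD mouse 1 lay among the controls (0.50, SE 0.19, adjusted p = 0.336). Notch1 had 585, 1163 and 860 against 649, 675 and 755, with HFD mouse 1 below every control (0.27, SE 0.21, adjusted p = 0.661). Dll4, the ligand of tip cells, had 0.06 (SE 0.17) and Jag2 0.03 (SE 0.20). The mean log2 level of the 5 genes relative to the control mean was -0.07, 0.47 and 0.37 in HFD mice 1, 2 and 3 and -0.08 to 0.10 in the control mice.

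None of 7 endothelial transcription factors had an unadjusted p under 0.05 (beside 12.2% of all genes) or stood apart between the diets (beside 18.0%). Sox7, of the SOXF family, had 410, 448 and 449 normalized counts with the HFD and 448, 469 and 568 with the control diet (log2 fold change -0.18, SE 0.14, limma adjusted p = 0.657). Sox17 had 0.38 (SE 0.22), Sox18 0.04 (SE 0.13), and the ETS factors Erg, Fli1 and Ets1 had -0.15, -0.05 and 0.08. Prox1, the lymphatic factor that cardiomyocytes also express, had -0.03 (SE 0.13).

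Of 4 inducible adhesion molecules, which endothelium displays to leukocytes, 1 had an unadjusted p under 0.05, higher (25%, beside 6.66% of all genes), and none passed the test. Sele, E-selectin, had 21.1, 37.7 and 40.9 normalized counts with the HFD and 19.0, 9.58 and 18.6 with the control diet, from 14 to 37 reads a sample. The groups did not overlap, and HFD mouse 1 lay close to the highest control (log2 fold change 1.04, SE 0.46, limma adjusted p = 0.395). Selp, P-selectin, overlapped, with 30.7 to 58.1 against 19.8 to 40.4 (0.56, SE 0.38). Icam1 had 624, 700 and 1074 against 659, 567 and 612, with HFD mouse 3 high (0.34, SE 0.19, adjusted p = 0.510), and Vcam1 had 607, 612 and 992 against 771, 753 and 740, again with HFD mouse 3 high and the other HFD mice below the controls (-0.07, SE 0.18).

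No pericyte gene of the set had an unadjusted p under 0.05 (beside 12.2% of all genes). Rgs5, the most abundant pericyte gene here, had 6134, 6194 and 5165 normalized counts with the HFD and 5055, 6007 and 5666 with the control diet (log2 fold change 0.06, SE 0.12, limma adjusted p = 0.884). Pdgfrb, the receptor that draws pericytes to vessels, had -0.12 (SE 0.13), and Cspg4, the NG2 proteoglycan, -0.01 (SE 0.18). The endothelial ligand Pdgfb had 554, 569 and 926 against 597, 576 and 599, where HFD mouse 3 alone was high (0.17, SE 0.19).

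**Figure D3:**
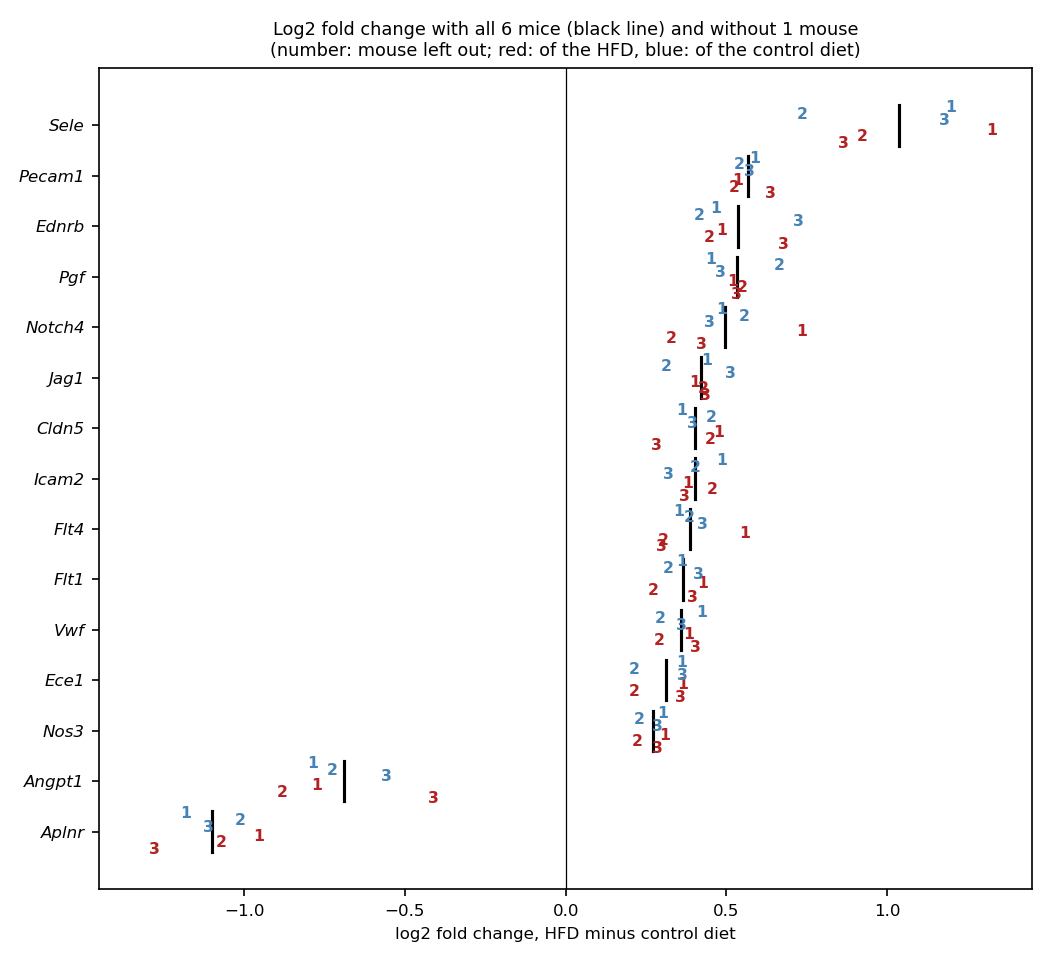
Log2 fold change (x axis, HFD minus control diet) of the 15 vascular genes with an unadjusted p under 0.05, with all 6 mice (black line) and with 1 mouse left out (numbers give the mouse, red for HFD and blue for control). No gene crosses zero, but these genes were picked by their p in the fit of all 6 mice. Of the 51 genes, 16 changed sign in at least 1 fit without 1 mouse. Among those plotted, Sele (0.74 to 1.33) and Angpt1 (-0.88 to -0.41) move the most.

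A wider list of 81 genes of the same pathways was read beside the set, of which 79 passed the filter on low values and Edn3 and Tnmd did not. Of these, 1 passed the adjusted test (1.27%, beside 0.746% of all genes). An unadjusted p under 0.05 was found for 19 (24.1%, beside 12.2%), 14 higher (17.7%, beside 6.66%) and 5 lower (6.33%, beside 5.55%), and the median log2 fold change was 0.09. Lyve1 rose, with 1575, 1840 and 1480 normalized counts in HFD mice and 966, 893 and 794 in control mice, far apart (0.88, SE 0.13, limma adjusted p = 0.0172). Lyve1 encodes a hyaluronan receptor of lymphatic endothelium that tissue macrophages also carry. Leaving out 1 mouse gave adjusted p from 0.00702 to 0.0851, under 0.05 in 3 of 6 fits and lost without HFD mouse 2 (0.0614), control mouse 2 (0.0851) or control mouse 3 (0.0752), and a fit with no variance trend gave 0.174. The other lymphatic genes of the wider list overlapped between the diets. Their log2 fold changes were 0.10 for Pdpn, 0.09 for Foxc2, -0.16 for Ccl21a and -0.36 for Reln. Of the set, Flt4 had 0.39, Mmrn1 0.22 and Prox1 -0.03, and these genes overlapped as well. Flt4 was among the genes of the set with an unadjusted p under 0.05, whereas Mmrn1 and Prox1 were not. Of 6 macrophage markers, 5 had positive fold changes and 2 an unadjusted p under 0.05, all higher (33.3%, beside 6.66% of all genes). The mean log2 level of the 6 markers was 0.11 to 0.39 in HFD mice and -0.15 to 0.17 in control mice. Their part in the value of Lyve1 was not tested.

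The next genes of the wider list did not pass the test. Sema3f, a semaphorin that acts through neuropilins, had 596, 516 and 686 normalized counts against 424, 276 and 283 (log2 fold change 0.89, SE 0.19, limma adjusted p = 0.0657). Nfatc1, a factor of endocardium and valves, had 737, 833 and 817 against 541, 519 and 550 (0.57, SE 0.12, adjusted p = 0.0596). S1pr1, the receptor through which sphingosine 1-phosphate tightens the endothelial barrier, had 1656, 1608 and 1790 against 1106, 1156 and 1311 (0.50, SE 0.11, adjusted p = 0.0813). The groups stood apart in all 3, but these were picked for the smallest p, so this adds nothing to it. In the wider list 16.5% of the tested genes were higher without overlap, beside 8.86% of all genes. Among lower genes were Hey1, a Notch target, with 390, 382 and 335 against 504, 483 and 443 (-0.37, SE 0.13, adjusted p = 0.285), Lmo2 (-0.35, SE 0.13) and Ddah2 (-0.35, SE 0.14). Other Notch pathway genes gave no unadjusted p under 0.05 among 8 (beside 12.2% of all genes), while Jag1 and Notch4 of the set lay at 0.42 and 0.50.

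Markers of other cells moved in the same samples. Of 4 brown adipocyte markers, 3 passed the filter and all 3 were higher without overlap (100%, beside 8.86% of all genes). Ucp1 and Cidea had an adjusted p under 0.05 (66.7%, beside 0.484% of all genes). The mean log2 level of the 3 was 1.80 to 2.60 in HFD mice and -0.41 to 0.78 in control mice. Elovl3, which did not pass the filter and is not in that mean, was at 0 in control mice 2 and 3. White adipocyte markers overlapped, at -0.71 to 1.05 against -1.02 to 1.01. Vascular smooth muscle markers stood at 0.32 to 0.44 against -0.27 to 0.32, and fibroblast markers at -0.15 to -0.08 against -0.13 to 0.14. The junction and surface genes of endothelium stood at 0.15, 0.13 and 0.27 in HFD mice and between -0.07 and 0.07 in control mice. The part of these cell types, of tissue sampling and of mitochondrial share in the vascular values was not tested.

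**Figure D4:**
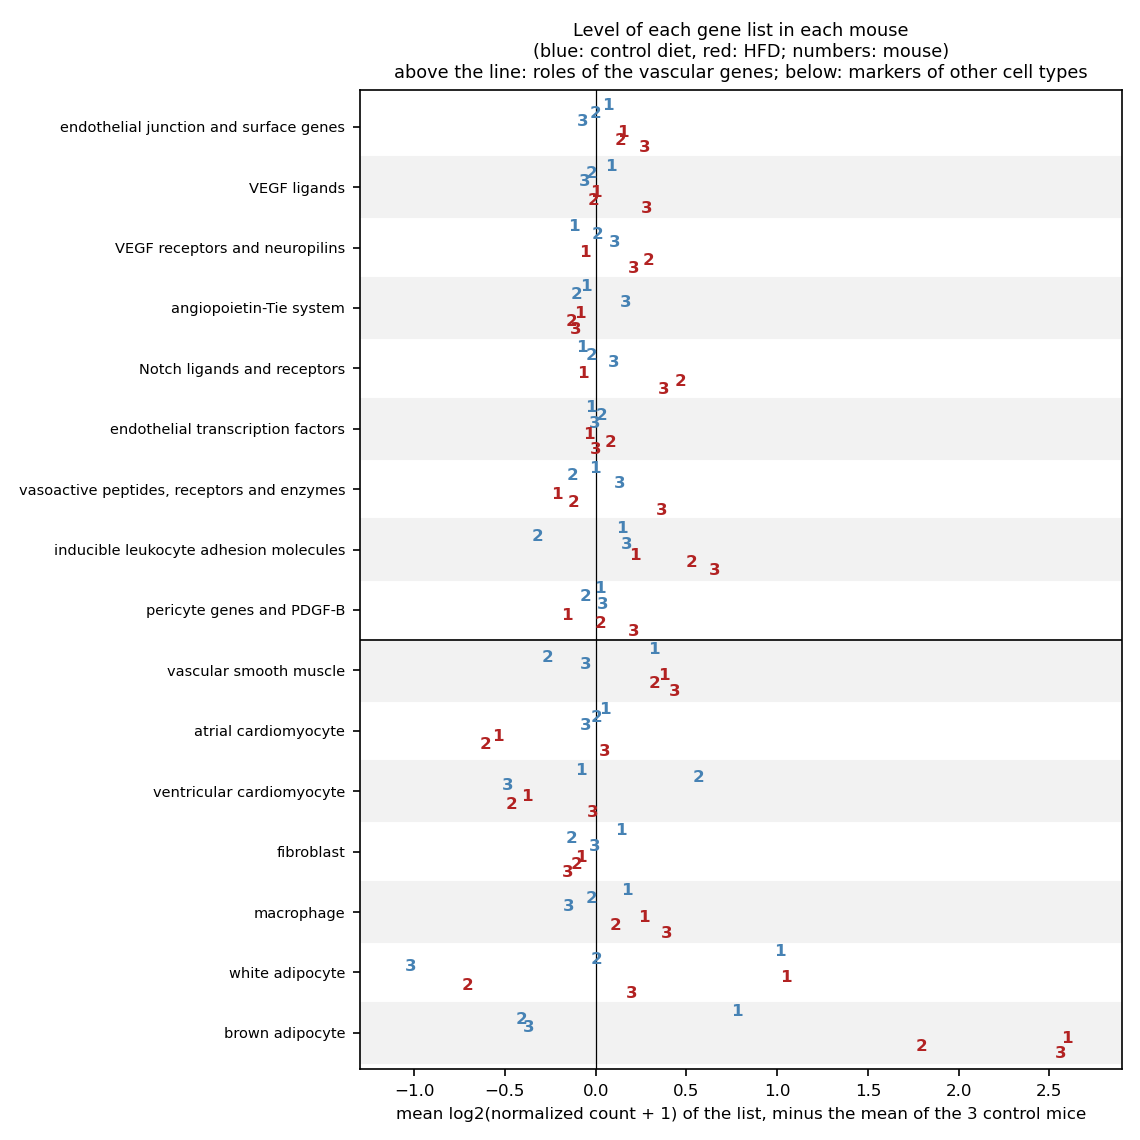
Mean log2(normalized count + 1) of each gene list in each mouse, minus the mean of the control mice (x axis), for the 9 roles of the vascular genes and for markers of other cell types. The junction and surface genes are at 0.13 to 0.27 in HFD mice and -0.07 to 0.07 in control mice, and brown adipocyte markers differ most, at 1.80 to 2.60 against -0.41 to 0.78.

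Measured against the endothelial junction and surface genes themselves, that is with their mean log2 level subtracted in each sample, which shifts the median of all genes to -0.18, the median of the 51 genes was -0.04. Because the step lowers the log2 fold change of every gene by the same amount, it is no check on a gene that was already lower. Aplnr was at -1.28 on that scale (limma adjusted p = 0.0185). Tie1, Kdr and Rgs5, which had small positive values before the step, turned negative through that shift.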

How the data were processed

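Gene expression was measured by RNA sequencing in atria of 3 HFD and 3 control mice. The authors prepared directional libraries, used STAR (GRCm38, Ensembl annotation) for alignment, discarded reads that map to several places, counted per gene in Salmon and scaled by DESeq2 size factors (tool versions are not given in the sources used here). The deposited signal is this normalized count, and the authors' own fold changes, p-values and scores were not used. In every sample 100% of values were whole multiples of the value of 1 read, within 0.01. Use of strand in counting is not stated, so overlapping genes are uncertain.

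The 51 genes and all lists were chosen with earlier results of these data known. Those given sample by sample had an unadjusted p under 0.05, did not overlap or opened a role list, and from the wider list, those past the threshold and the 3 smallest p in each direction were named. Others given sample by sample (Cdh5, Apln, Vcam1, Pdgfb and the genes of the closing observations) were chosen after their values were seen. The test was limma 3.58.1 under R 4.3.3, with a trended prior variance and a pseudocount of 1 before log2. It took the 15275 genes whose mean reached 10 and all 6 samples, without covariates, and p was adjusted by Benjamini-Hochberg (threshold 0.05). On simulated data 186 of 200 genes changed by 1.5 on the log2 scale were recovered (93%) with 17 false calls among 15049 genes. The changed genes were drawn only from genes with higher means. The log2 fold changes of the vascular genes were smaller than 1.5, so the 93% does not apply to them. Alternatives covered scaling, filter, pseudocount, variance model, replicate number, edgeR 4.0.16, DESeq2 1.42.0 and each mouse left out. No pair of samples in a diet agreed within sampling noise. Titles number the mice of each diet, and 3 against 3 limits precision.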

Additional observations from a re-analysis of the deposited data

How the results depend on the processing

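The count of 114 genes called among all genes became 0 without a variance trend (1717 at an unadjusted p under 0.05), 184 relative to the endothelial genes (44 higher, 140 lower, against 74 and 40), 476 with DESeq2, 69 with an absolute log2 fold change above 1 as well, and 14 to 318 without 1 mouse. Of the 51 vascular genes, 1 was called, against 0 without a variance trend, 2 (Aplnr and Pecam1) with at least 10 in every sample or a pseudocount of 5, 3 with DESeq2 (Aplnr, Pecam1 and Angpt1) and 0 to 2 without 1 mouse. Those with an unadjusted p under 0.05 numbered 7 to 14 without 1 mouse, in fits with fewer mice, against 15. The median log2 fold change of the set, 0.14, was -0.043 relative to the endothelial genes (beside -0.18 over all genes tested) and 0.030 to 0.18 without 1 mouse. Calls in the wider list, 1, became 0 without a variance trend, 9 with DESeq2 and 0 to 3 without 1 mouse. Without HFD mouse 3 and control mouse 2, chosen after seeing the data, 183 genes, 9 vascular genes (unadjusted) and 2 of the wider list were found. Aplnr and Lyve1 without a variance trend had adjusted p of 0.177 and 0.174. Tie1 (-0.022), Kdr (-0.043) and Rgs5 (-0.12) reversed relative to the endothelial genes, Rgs5 ranged from -0.0057 (without control mouse 1) to 0.20 and Vegfa from -0.057 (without HFD mouse 3 and control mouse 2) and -0.0093 (without HFD mouse 3) to 0.34 with mice left out. Apart from these, the 23 genes of the set and 7 of the wider list named by rule kept their direction in the alternatives run, whereas 16 of the 51 genes changed sign in at least 1 fit without 1 mouse. The causes were not tested.

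Replicate numbers do not pair the mice: deviations of same-numbered mice correlated at 0.116, -0.027 and -0.004, and HFD mouse 2 correlated best with control mouse 3 (0.160). With the replicate number as a block, 157 genes, 1 vascular gene and 3 of the wider list were called. Genes with few reads, such as Sele, are limited by depth.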

Other observations

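Of the capillary genes in the wider list, 3 picked after their values were seen stood apart between the diets without passing the test. Car4, a carbonic anhydrase on the capillary surface, had 349, 299 and 198 normalized counts in HFD mice and 151, 160 and 111 in control mice (log2 fold change 0.97, SE 0.23, limma adjusted p = 0.0948). Gpihbp1, which holds lipoprotein lipase on capillary endothelium, had 857, 807 and 803 against 524, 664 and 498 (0.56, SE 0.14, adjusted p = 0.0991). Ly6c1, a surface antigen of mouse endothelium and monocytes, had 1588, 1643 and 1480 against 1124, 1098 and 727 (0.70, SE 0.16, adjusted p = 0.0877). The other capillary genes overlapped, with log2 fold changes of 0.45 for Rgcc, -0.27 for Meox2 and -0.34 for Tcf15. Of all 14 arterial, venous and capillary genes, 9 had positive and 5 negative log2 fold changes, with a median of 0.13. An unadjusted p under 0.05 was found for 5, 4 higher (28.6%, beside 6.66% of all genes) and 1 lower (7.14%, beside 5.55%). The groups stood apart for 5 of the 14, 4 higher (28.6%, beside 8.86% of all genes) and 1 lower (7.14%, beside 9.17%).

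Among genes of prolyl hydroxylases, which mark HIF proteins for degradation, 2 picked after their values were seen stood apart without passing the test. Egln3 had 1018, 983 and 1536 normalized counts in HFD mice and 698, 803 and 720 in control mice (log2 fold change 0.64, SE 0.17, limma adjusted p = 0.125), and Egln1 had 8109, 8019 and 7286 against 6419, 6338 and 5626 (0.35, SE 0.11, adjusted p = 0.215). Egln2, a further hydroxylase outside the lists, had a log2 fold change of -0.10 (SE 0.13), and Hif1a (0.26, SE 0.14) and Epas1 (0.16, SE 0.14), which encode HIF subunits, overlapped between the diets. Of the 11 other VEGF, semaphorin and hypoxia genes, 9 had positive and 2 negative log2 fold changes. An unadjusted p under 0.05 was found for 4, all higher (36.4%, beside 6.66% of all genes). The groups stood apart for 4 of the 11, all higher (36.4%, beside 8.86% of all genes).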
